A study of Physcomitrium patens with 8 samples.

Results

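The 61 probes described here, out of 38181 gene probes on a custom array of the moss Physcomitrium patens, had a WT signal at least 4-fold higher in rehydrated than in well-watered colonies, with little change in WT on abscisic acid (ABA) or after drying. The level of a probe was the log2 of its processed signal in 1 channel minus the median, in that channel, of the 5475 probes well above background in all 16 channels, so each level is relative to the rest of its array. The selection took probes well above background in WT on all 8 arrays (6352 probes), with a mean WT level at least 2 higher in Rehydration than in Hydration and within 0.7 of Hydration both on ABA and in Dehydration. The 61 probes came from 60 loci, a locus being what precedes the model version in an identifier. Since WT values of all 4 treatments chose these probes, their WT values are a description without a test. The atg5 channel, other probes of the same loci, and the replicate left out of a selection on the other replicate were not used by the selection.

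RNA from colonies of the atg5 line, labelled as a knockout of autophagy related gene 5, was hybridised together with RNA from WT colonies on each of 8 two-colour Agilent arrays, 2 per treatment, with the dyes exchanged between both arrays. Rehydration stands for dried colonies put back on fresh medium for 24 h, and Dehydration for colonies kept over silica gel for 24 h. ABA stands for colonies kept on 50 µM ABA for 24 h, and Hydration for well-watered colonies. For all groups, of both genotypes, the labels give 7 days of culture and 25 °C. All were grown under continuous light on the same medium with ammonium tartrate and glucose. The labels call both arrays of a treatment biological replicates and name 1 atg5 line, without the number of clones behind it or whether dried colonies had been on ABA before. No array identifier (0 of 38181) occurs in the given reference table of 27567 genes, so probes are called by identifier, no role can be given for any of them, and neither the protonemal tissue nor the knocked-out gene could be checked by its own transcripts.

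Mosses have little control over water loss and dry out with the air around them. Protonemata, the filamentous stage that grows from a spore, survive drying better after exposure to ABA, the plant hormone of water stress, and once wet again their cells repair membranes and take up photosynthesis, protein synthesis and growth. Autophagy carries cell material in vesicles to the vacuole for breakdown and reuse, and ATG5 belongs to the machinery that forms these vesicles.

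The Rehydration arrays were dimmer than the others, which bears on every value below. Of all gene probes, 29.2 and 23.3% were well above background in atg5 and 19.3 and 30.6% in WT on the Rehydration arrays (replicates 1 and 2), against 37.0 to 50.4% in atg5 and 38.9 to 53.4% in WT on the other arrays. The lowest level that was well above background in WT was -2.42 and -3.47 on the Rehydration arrays, against -5.13 and -5.29 on the Hydration arrays. A probe dimmer than that in Hydration could enter the selection only if it rose, so -2.42 is called the floor here. Of the 61 probes, 27 had a mean WT Hydration level at or below the floor and 34 above it.

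In WT the rise on rehydration stood out against the flat levels of the other treatments on every array. The mean level of the 61 probes was 0.63 and 0.70 on the WT Rehydration arrays, -1.70 and -1.79 in Dehydration, -1.64 and -1.76 on ABA, and -1.78 and -1.89 in Hydration. The median WT difference between Rehydration and Hydration was 2.29 and ranged from 2.01 to 4.65, beside a median of 0.08 over the 6352 probes eligible for the selection. In replicate 1 alone it ranged from 0.48 to 4.94 with 41 probes at 2 or more, and in replicate 2 alone from 1.75 to 4.75 with 51 probes at 2 or more. All 61 probes had both WT Rehydration arrays above both WT Hydration arrays, as did 38.1% of eligible probes. The limit of 0.7 held for means and not for single arrays. The difference between ABA and Hydration in WT reached from -1.89 to 1.49 in replicate 1 and from -1.59 to 1.74 in replicate 2, and that between Dehydration and Hydration from -1.78 to 0.89 and from -1.0 to 1.29.

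**Figure D1:**
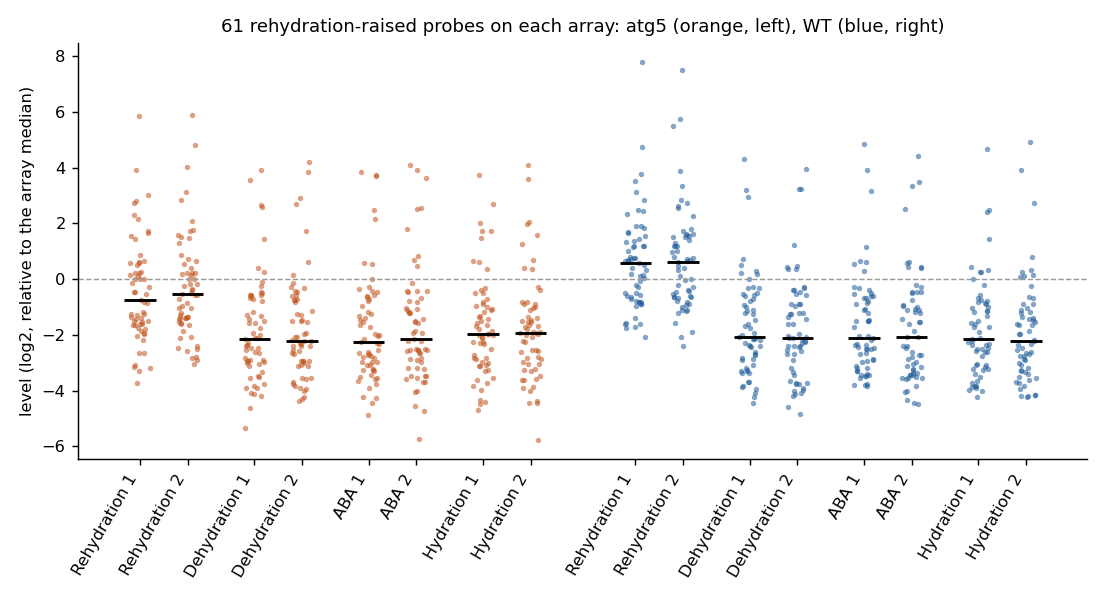
Level of each of the 61 probes on each array (log2, relative to the array median), with atg5 on the left in orange and WT on the right in blue, treatments named with the replicate number and black bars for medians. Both WT Rehydration arrays stand above the other WT arrays, whose mean levels lie between -1.89 and -1.64, and the atg5 Rehydration arrays lie between them at mean levels of -0.43 and -0.27.

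Rises of this size were common in WT, and few of them were confined to rehydration by the limits used. Of the 6352 eligible probes, 506 were at least 2 higher in Rehydration than in Hydration, and 445 of these lay outside 0.7 on ABA or in Dehydration. The 61 probes are thus 12.1% of the rises, and 2.25% of the 2707 eligible probes that stayed within 0.7 on ABA and in Dehydration. With the sign turned, the same limits took 45 probes that were at least 2 lower in Rehydration.

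The size of the rise went with the level before treatment, but the Hydration level enters both values. Eligible probes also had to be detected on the dim Rehydration arrays, so the medians below are a description only. Eligible probes with a WT Hydration level of -3 or lower (232 probes, 17 of the 61 among them) had a median Rehydration minus Hydration difference of 2.23. That median was 1.17 for levels of -3 to -2 (577 probes, 15 of the 61), 0.42 for -2 to -1 (1172 probes, 15 of the 61), -0.02 for -1 to 0 (1522 probes, 5 of the 61) and -0.44 for levels above 0 (2849 probes, 9 of the 61). At or below the floor 41.2% of eligible probes rose by at least 2, and above it 5.11%. What part the detection limit of the Rehydration arrays has in the rises of the 27 dim probes was not tested.

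**Figure D2:**
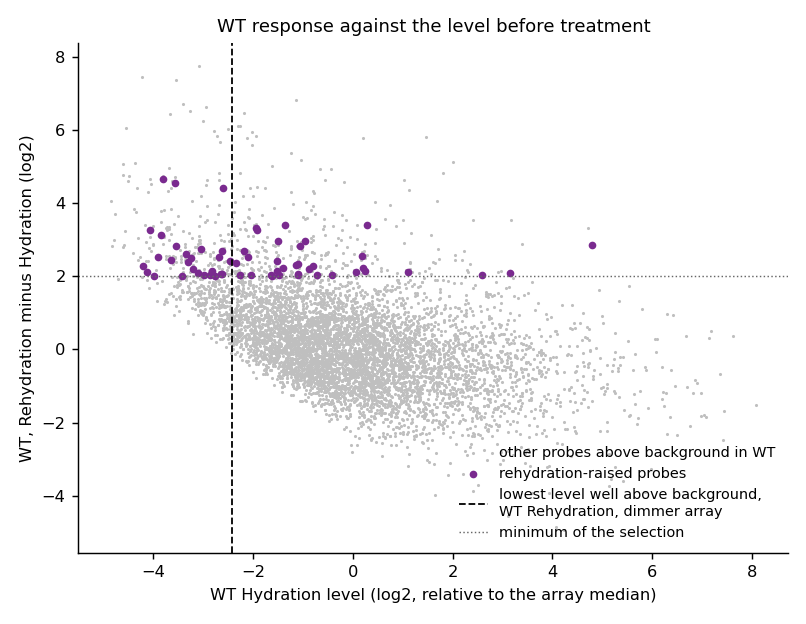
WT Rehydration minus Hydration (log2) against the WT Hydration level (log2, relative to the array median) for eligible probes in grey and the 61 probes in purple, with the floor of -2.42 as a dashed line and the minimum of 2 as a dotted line. The grey cloud slopes down from left to right, with the Hydration level entering both axes, and 27 of the 61 probes lie at or left of the floor.

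The rises are relative to the array median, which itself fell against the spike-in controls. Scaled to 6 spike-in probes instead, the median eligible probe was 3.94 lower in WT Rehydration than in WT Hydration and 0.96 lower in atg5. On that scale the 61 probes had a median difference of -1.73 in WT, with 3 probes above 0, and of 0.29 in atg5. All 61 lay above the median of the eligible probes in WT under either scaling, which follows from the selection. Before any scaling the log2 processed medians were 11.3 and 11.3 in WT Hydration and 10.4 and 10.6 in WT Rehydration. In atg5 they were 11.2 and 11.2, and 10.3 and 10.6. In the spike-in-scaled fit, made on other signals, the median of all probes fitted, not only the eligible ones, was -1.94 in WT and -0.24 in atg5. The size of the drop thus differed when the signals and the set of probes were changed together. Whether the drop against the spike-ins reflects RNA amount, labelling or the spike-in signals themselves was not tested.

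The 3 largest WT rises were seen in both genotypes. Pp1s98_98V6.1 had levels of 0.26 and 0.39 in atg5 Rehydration and -3.64 and -3.31 in atg5 Hydration, and of 0.64 and 1.02 in WT Rehydration and -3.90 and -3.74 in WT Hydration. Pp1s307_73V6.1 had levels of 0.64 and 0.56 in atg5 Rehydration and -3.12 and -2.61 in atg5 Hydration, and of 1.20 and 0.77 in WT Rehydration and -3.64 and -3.50 in WT Hydration. Pp1s107_173V6.1 had levels of 2.79 and 1.48 in atg5 Rehydration and -3.12 and -3.61 in atg5 Hydration, and of 2.42 and 1.18 in WT Rehydration and -2.51 and -2.69 in WT Hydration. For each of these probes the Rehydration arrays were far apart from the Hydration arrays, and the WT differences of 4.65, 4.55 and 4.40 stand for folds of 25.0, 23.5 and 21.2. All 3 lay below the floor in WT Hydration, so that the lower end of each WT difference was read on arrays with a lower detection limit than the upper end.

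Among the next largest WT rises, some were small in atg5. Pp1s213_86V6.1 had levels of 0.00 and -0.26 in atg5 Rehydration and -0.39 and -0.88 in atg5 Hydration, against 1.85 and 2.26 in WT Rehydration and -1.59 and -1.12 in WT Hydration. Pp1s358_56V6.1 had levels of -0.14 and 0.17 in atg5 Rehydration and -0.96 and -0.40 in atg5 Hydration, against 1.17 and 1.52 in WT Rehydration and -2.26 and -1.60 in WT Hydration. Both probes were above the floor in WT Hydration, and both were also higher in atg5 than in WT on each Hydration array. In the channel fit given below, the atg5 difference of Pp1s213_86V6.1 was still called, at 0.93 ± 0.24 (SE, limma adjusted p = 0.0130). That of Pp1s358_56V6.1 was not, at 0.79 ± 0.31 (adjusted p = 0.0757). Pp1s13_454V6.1 had levels of -3.16 and -2.41 in atg5 Rehydration and -3.29 and -3.04 in atg5 Hydration, against -0.51 and -1.11 in WT Rehydration and -3.97 and -4.16 in WT Hydration. It was not well above background on either atg5 Rehydration array, so its atg5 level there is only an upper bound.

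The remaining probes of the 10 largest WT rises had an atg5 difference of 1.55 or more as well. Pp1s526_2V6.1 had levels of 3.02 and 3.11 in atg5 Rehydration and 0.64 and 0.70 in atg5 Hydration, and of 3.50 and 3.89 in WT Rehydration and 0.34 and 0.24 in WT Hydration. Pp1s47_171V6.1 had levels of 1.71 and 1.56 in atg5 Rehydration and -3.08 and -1.69 in atg5 Hydration, and of 1.38 and 1.38 in WT Rehydration and -2.49 and -1.39 in WT Hydration. Both arrays of a treatment lay close together for Pp1s526_2V6.1 and were spread in Hydration for Pp1s47_171V6.1, yet the treatments did not overlap for either. Pp1s2_6V6.1 had levels of -1.35 and -0.97 in atg5 Rehydration and -4.41 and -3.88 in atg5 Hydration, and of -0.79 and -0.66 in WT Rehydration and -3.84 on both WT Hydration arrays. Its 2 genotypes moved alike, by 2.98 in atg5 and 3.11 in WT.

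**Figure D3:**
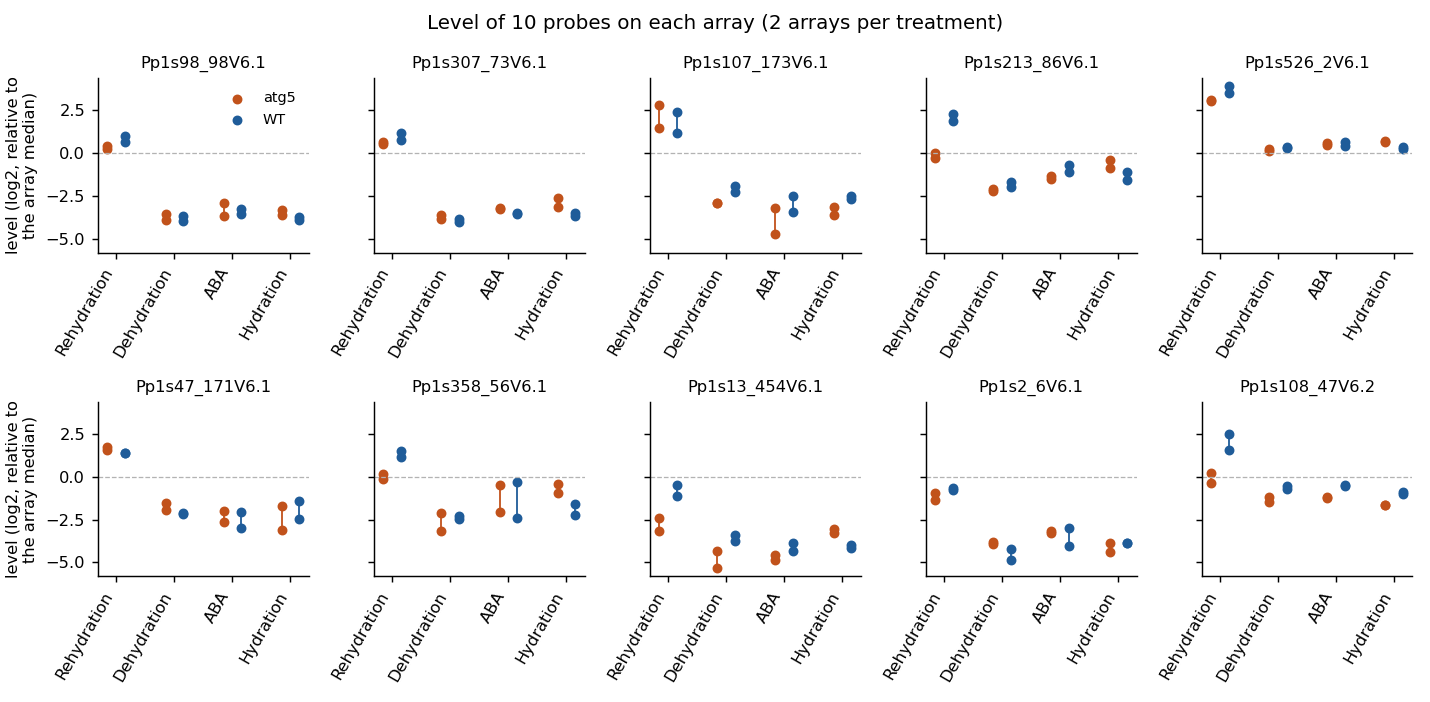
Levels (log2, relative to the array median) of the 10 probes with the largest WT rise, with treatments along each axis, atg5 in orange left of WT in blue and a line joining both arrays of a group. The WT Rehydration points lie above all other WT points in each panel, whereas the atg5 Rehydration points lie near the atg5 Hydration points for Pp1s213_86V6.1, Pp1s358_56V6.1 and Pp1s13_454V6.1.

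Pp1s108_47 was the locus with more than 1 probe among the 61. Its probe Pp1s108_47V6.2 had levels of 0.23 and -0.39 in atg5 Rehydration and -1.63 on both atg5 Hydration arrays, and of 2.47 and 1.57 in WT Rehydration and -1.02 and -0.88 in WT Hydration. Pp1s108_47V6.1 had levels of -0.46 and -0.17 in atg5 Rehydration and -1.52 and -1.88 in atg5 Hydration, and of 1.91 and 1.61 in WT Rehydration and -0.69 and -1.43 in WT Hydration. Both probes gave a smaller difference in atg5 (1.55 and 1.39) than in WT (2.97 and 2.82), and both read lower in atg5 than in WT on every Rehydration and Hydration array. The third probe of the locus, Pp1s108_47V6.3, was well above background on 6 of the 8 WT arrays and also moved on ABA and in Dehydration, by 2.48 and 2.27 in WT.

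The rule for named probes also took the 5 probes with the most signal in WT Rehydration, for which detection is no concern, although levels of different probes cannot be ranked as amounts of RNA. Pp1s651_2V6.3 had levels of 5.86 and 5.88 in atg5 Rehydration and 3.74 and 3.59 in atg5 Hydration, against 7.80 and 7.49 in WT Rehydration and 4.67 and 4.91 in WT Hydration. Pp1s117_57V6.1 had levels of 2.71 and 4.02 in atg5 Rehydration and 2.01 and 1.98 in atg5 Hydration, against 3.78 and 5.49 in WT Rehydration and 2.47 and 2.73 in WT Hydration. Its Rehydration arrays were more than 1 log2 unit apart in each genotype. Pp1s27_266V6.1 had levels of 3.92 and 4.81 in atg5 Rehydration and 2.69 and 4.08 in atg5 Hydration, and of 4.75 and 5.74 in WT Rehydration and 2.41 and 3.91 in WT Hydration. Pp1s34_444V6.2 had levels of 2.14 and 2.08 in atg5 Rehydration and 1.72 and 1.57 in atg5 Hydration, and of 3.11 and 3.35 in WT Rehydration and 1.43 and 0.78 in WT Hydration. For Pp1s27_266V6.1 the atg5 arrays of both treatments overlapped, and neither of these 2 probes could be fitted in the channel model because of spots with an outlier mark. The fifth of these probes, Pp1s526_2V6.1, is given above.

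Some probes lay close to the minimum of 2 on either side. Just inside it were Pp1s364_50V6.1, Pp1s23_141V6.2 and Pp1s52_53V6.1, with WT differences of 2.01, 2.01 and 2.02. Just outside it, with flat WT levels on ABA and in Dehydration, were Pp1s426_21V6.1 at 1.99, Pp1s52_102V6.1 at 1.99 and Pp1s30_295V6.1 at 1.98.

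Other probes for the same loci that were detected on all WT arrays mostly rose in WT as well. Of the 60 loci, 18 carry 36 further probes, and 18 of these, from 11 loci, were well above background in WT on all 8 arrays. Their median WT difference between Rehydration and Hydration was 1.75, with 14 of the 18 (77.8%) at 1 or more and 5 at 2 or more, beside 22.4% of eligible probes at 1 or more. A probe dimmer than the floor in Hydration could be among the 18 only if it rose, and the 22.4% is not matched to level. Of the 18, 10 lay outside 0.7 on ABA or in Dehydration. Models of a locus can share sequence, and probes of a locus are not independent of each other.

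Some loci read alike over their probes and others did not. Pp1s651_2V6.1 rose by 3.40 and 3.24 in WT in replicates 1 and 2, near the 2.85 mean difference of Pp1s651_2V6.3, whereas Pp1s651_2V6.2 changed by 2.30 and -1.39. Pp1s249_56V6.3 and Pp1s249_56V6.4 had mean WT differences of 1.95 and 1.77, close to the 2.04 of their selected partner. At Pp1s287_5, by contrast, the 5 further probes had WT differences between -0.37 and 0.44, while the selected probe of that locus, Pp1s287_5V6.1, had 2.02. That mean rests on replicate 2, with a difference of 0.48 in replicate 1 and 3.55 in replicate 2 and WT Hydration levels of -1.32 and -4.21. The WT differences of the 5 probes between ABA and Hydration lay between -2.02 and -0.97 on average, and those of the selected probe were -1.89 in replicate 1 and 0.98 in replicate 2, which average to -0.45. At Pp1s121_122 the further probes rose by 1.57 to 3.97 on average, but with replicates as far apart as 1.45 and 6.50 for Pp1s121_122V6.4. These loci were picked out after their values were seen.

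In atg5 most of these probes were also higher after rehydration. The median difference between Rehydration and Hydration in atg5 was 1.26 on the scale of the selection, beside 0.02 over all eligible probes. It was at least 2 for 13 of the 61 probes (8.19% of eligible probes), from 1 to 2 for 20, from 0 to 1 for 25 and below 0 for 3. At 1 or more were 33 probes, against 19.5% of eligible probes. Both atg5 Rehydration arrays lay above both atg5 Hydration arrays for 52 of the 61 probes and for 36.3% of eligible probes. Within replicate 1 the median was 1.06, with 56 probes above 0 (50.3% of eligible probes). Within replicate 2 it was 1.24, with 58 above 0 (50.4% of eligible probes). These shares and medians of eligible probes are not matched to level. At or below the floor lay 27 of the 61 probes but only 502 of the 6352 eligible ones. The median atg5 difference was 1.27 for the 34 probes above the floor and 1.02 for the 27.

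In limma's separate-channel fit over all 8 arrays, in which levels are quantile-normalized between arrays and differences come out smaller than on the scale of the selection, 58 of the 61 probes could be tested. Of these, 42 were higher in atg5 Rehydration than in atg5 Hydration and 0 lower at a Benjamini-Hochberg adjusted p under 0.05, with a median log2 difference of 0.86. Of all 19141 probes fitted, 15.8% were called higher and 15.7% lower. Of the 34 probes above the floor, 31 were fitted and 21 called higher, beside 26.9% of eligible probes above the floor. Of the 27 at or below it, 21 were called higher, beside 65.0% of eligible probes there, so for the dim probes the share was near that of other dim probes. The count was 20 with median centring and 4 with spike-in scaling, and relative to the median of all probes the 58 differed by 0.84, 0.36 and 0.36 in the main, median-centred and spike-in-scaled fits. The atg5 and WT channels were read from the same spots, with an estimated correlation of 0.659 between channels of a spot, so an error of a spot that favoured selection in WT is partly shared by atg5.

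**Figure D4:**
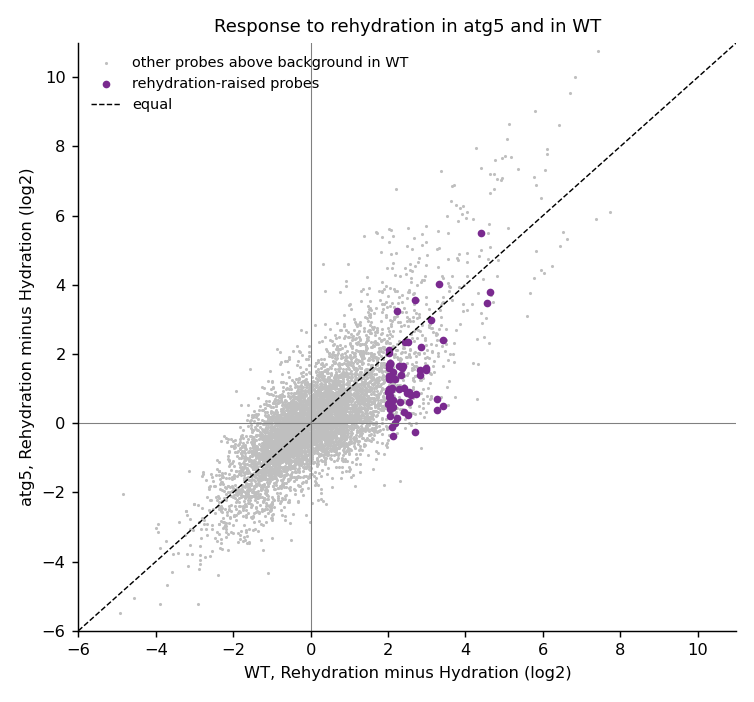
Rehydration minus Hydration (log2) in atg5 on the vertical axis against WT on the horizontal axis, with eligible probes in grey, the 61 probes in purple and a dashed line where both genotypes are equal. The purple points start at the WT minimum of 2, and 5 of the 61 lie above the dashed line.

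The largest atg5 differences of the channel fit belonged to probes that led in WT, with 1 exception. Pp1s107_173V6.1 rose by 4.06 ± 0.35 (SE, n = 2 arrays per group here and throughout, limma adjusted p = 9.55e-06), Pp1s98_98V6.1 by 2.95 ± 0.19 (adjusted p = 1.18e-06), Pp1s307_73V6.1 by 2.84 ± 0.16 (adjusted p = 4.48e-07) and Pp1s526_2V6.1 by 2.57 ± 0.16 (adjusted p = 9.97e-07). The exception was Pp1s57_24V6.1, which rose by 2.25 ± 0.18 (adjusted p = 6.02e-06) from a different starting point. It had levels of 1.65 and 1.75 in atg5 Rehydration, 2.60 and 2.69 in atg5 Dehydration, 2.49 and 2.54 in atg5 on ABA and -1.59 and -1.5 in atg5 Hydration, whereas in WT it had 2.32 and 2.53 in Rehydration, 0.50 and 0.36 in Dehydration, 0.61 and 0.58 on ABA and 0.25 and 0.14 in Hydration. In atg5 this probe was thus high after all 3 treatments and low in Hydration alone.

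At the other end, 16 of the 58 fitted probes had no call in atg5, and 5 of them are named by the rule for the smallest differences. Pp1s125_81V6.2 differed by -0.19 ± 0.12 (limma adjusted p = 0.273), with levels of -0.30 and 0.20 in atg5 Rehydration and -0.52 and -0.81 in atg5 Hydration. Pp1s109_27V6.1 differed by 0.09 ± 0.31 (adjusted p = 0.861), with -1.62 and -1.03 in atg5 Rehydration and -1.13 and -0.99 in atg5 Hydration, against -0.23 and 0.39 in WT Rehydration and -2.77 and -2.46 in WT Hydration. The atg5 arrays of the 2 treatments overlapped for Pp1s109_27V6.1, and its atg5 Hydration level already stood above that of WT. Pp1s138_48V6.1 differed by 0.19 ± 0.15 (adjusted p = 0.387) and Pp1s177_132V6.1 by 0.27 ± 0.12 (adjusted p = 0.125). Pp1s34_68V6.1, the last of the 5, was not well above background on either atg5 Rehydration array, so no difference is given for it. The scale of the selection gave larger differences for Pp1s177_132V6.1 and Pp1s138_48V6.1, of 1.40 and 0.68, with both atg5 Rehydration arrays above both Hydration arrays. It turned the sign for Pp1s125_81V6.2, to 0.61, and for Pp1s109_27V6.1, to -0.26.

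Detection in atg5 limited some of these comparisons. On both atg5 Rehydration arrays 53 of the 61 probes were well above background, as were 61 in Dehydration, 55 on ABA and 53 in Hydration. Of the 45 fitted probes detected on both Rehydration and both Hydration arrays in atg5, 34 were called higher in Rehydration. The share of all probes detected this way that were called higher is not given, so this count has no background beside it. A probe with a low atg5 Hydration level could pass that filter only if it rose. Outside the naming rule, Pp1s2_78V6.1 was called higher in Rehydration (limma adjusted p = 0.0198, and 0.0581 to 0.142 without either Hydration array or Rehydration replicate 2) although it was detected on 1 atg5 Rehydration array and no atg5 Hydration array, so no fold is given for it. Pp1s364_50V6.1 and, outside the naming rule, Pp1s22_153V6.3 were called higher although neither atg5 Rehydration array read them well above background, so no fold is given for them. The call of Pp1s364_50V6.1 (adjusted p = 0.0307) was lost without Hydration replicate 1 or 2 or Rehydration replicate 2 (adjusted p = 0.155, 0.109 and 0.175).

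On ABA and after drying, few of these probes were called in atg5. In atg5 45 of the 61 probes lay within 0.7 of Hydration on ABA, 42 in Dehydration and 36 in both, beside 54.96, 49.1 and 39.7% of eligible probes. Among the 2707 eligible probes that were flat in WT on ABA and in Dehydration, as the selection required, the shares were 86.0, 77.7 and 72.6%. In the channel fit 4 of 58 were higher and 1 lower in atg5 on ABA than in atg5 Hydration, where 10.7% of all probes were called higher and 12.3% lower. In Dehydration 4 were higher and 6 lower, where 13.2% of all probes were called higher and 13.9% lower. Spike-in scaling gave 10 higher and 0 lower in Dehydration and 2 higher and 0 lower on ABA, and median centring 1 higher and 3 lower in Dehydration and 1 higher and 0 lower on ABA. Without these scalings the shares are near or under those of all probes, and without 1 array the total called ranged from 2 to 8 on ABA and from 2 to 11 in Dehydration. Pp1s57_24V6.1 had the largest change in both, with 3.38 ± 0.18 on ABA (adjusted p = 2.60e-07) and 3.44 ± 0.18 in Dehydration (adjusted p = 1.88e-07).

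Set against dried colonies, rehydrated atg5 colonies gave a similar picture to that against Hydration, with the same Rehydration arrays in both. Of 58 probes 45 were higher and 1 lower in atg5 Rehydration than in atg5 Dehydration, with a median of 0.87, where 10.7% of all probes were called higher and 11.1% lower. The 1 lower probe was Pp1s57_24V6.1, which fell by 1.19 ± 0.18 (limma adjusted p = 0.00107). Both atg5 Rehydration arrays lay above both atg5 Dehydration arrays for 58 of the 61 probes, beside 32.5% of eligible probes, a share not matched to level. Without Dehydration replicate 1 the calls fell to 29 higher and 1 lower, and with spike-in scaling they turned round, to 3 higher and 10 lower. In WT, whose arrays chose the probes, the same fit gave 56 of 58 higher in Rehydration than in Hydration (16.2% of all probes) and 56 higher than in Dehydration (15.9% of all probes), with 0 lower in either, which follows from the selection. With spike-in scaling both turned round, to 0 higher and 31 lower.

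The within-array ratio of atg5 over WT sets both genotypes side by side under each treatment, but WT values of all 4 treatments chose the probes, so these ratios are a description and nothing is read from their calls. In Rehydration 1 of 60 fitted probes was higher and 35 were lower in atg5 (7.02 and 7.38% of all probes), with a median log2 ratio of -0.42. In Hydration 15 were higher and 9 lower (15.5 and 16.4% of all probes), with a median of 0.11. On the scale of the selection the median of atg5 minus WT in Rehydration was -1.14 in replicate 1 and -0.95 in replicate 2, and 54 of the 61 probes were lower in atg5 on both arrays, against 43.4% of eligible probes. In Hydration 19 of the 61 were lower in atg5 on both arrays, against 44.8% of eligible probes. Under median centring and spike-in scaling the ratio fit called 0 of the 60 probes in Rehydration, and without Rehydration replicate 1 it called 23, all lower. Without Hydration replicate 1 or 2 it called 10 and 11 in Hydration, and with spike-in scaling 0 were higher and 37 lower there.

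In the other treatments few ratios were called. In Dehydration 7 probes were higher and 5 lower in atg5 (12.3 and 6.58% of all probes), with a median of -0.0035. On ABA 6 were higher and 1 lower (8.57 and 4.88% of all probes), with a median of 0.04, and with the replicate number as a block 7 were higher and 4 lower. Processed signals gave 2 higher and 0 lower in each, and median centring and spike-in scaling called 0. The total called was 5 and 7 in Dehydration without its replicate 1 or 2, and 4 on ABA without ABA replicate 2.

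The ends of the ratio distribution were held by 4 probes, given without a test for the same reason. Pp1s651_2V6.3 was lowest in Rehydration, at -2.03 ± 0.24 (log2, SE), and on ABA, at -0.66 ± 0.24. Pp1s83_80V6.1 was lowest in Dehydration, at -0.68 ± 0.11. It had levels of 0.51 and 1.5 in atg5 Rehydration and 1.47 and 1.27 in atg5 Hydration, against 1.91 and 2.83 in WT Rehydration and 0.42 and 0.06 in WT Hydration, and its atg5 treatments overlapped. Pp1s138_48V6.1 was highest in Rehydration, at 0.45 ± 0.10, and in Hydration, at 1.51 ± 0.10. It had levels of 2.29 and 2.84 in atg5 Rehydration and 1.71 and 2.06 in atg5 Hydration against 1.65 and 2.74 in WT Rehydration and -0.20 and 0.34 in WT Hydration. Pp1s57_24V6.1 was highest in Dehydration, at 2.16 ± 0.12, and on ABA, at 1.86 ± 0.12, and lowest in Hydration, at -1.45 ± 0.12. The WT level of that probe was flat across these 3 treatments, as the selection required, so the change of its ratio came with its atg5 level.

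To read the genotypes on values that had not chosen the probes, the same limits were applied to 1 replicate and the other was read. On WT replicate 1 alone they took 64 probes, 32 of them among the 61. In replicate 2 these had a median Rehydration minus Hydration difference of 1.21 in atg5 and 1.96 in WT, and the rise was larger in WT for 54 of the 64. On WT replicate 2 alone they took 165 probes, 34 of them among the 61, which in replicate 1 had a median of 0.76 in atg5 and 1.80 in WT, with the larger rise in WT for 124. Over all probes detected in the choosing replicate the medians lay between -0.21 and 0.01. Many of the chosen probes were not detected where they were read. Well above background in both genotypes on the Rehydration and Hydration arrays read were 39 of the 64 and 69 of the 165. Those 39 had a median of 1.33 in atg5 and 2.09 in WT, with the larger rise in WT for 34, and those 69 a median of 1.05 in atg5 and 2.10 in WT, with the larger rise in WT for 59. Over all 5636 probes detected this way the medians in replicate 2 were 0.02 in atg5 and 0.02 in WT. Over all 6402 such probes those in replicate 1 were -0.0027 and 0.03. The share of all such probes with the larger rise in WT is not given, so the counts have no background beside them. No test was made of these paired counts, since probes on 1 pair of arrays are not replicates.

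**Figure D5:**
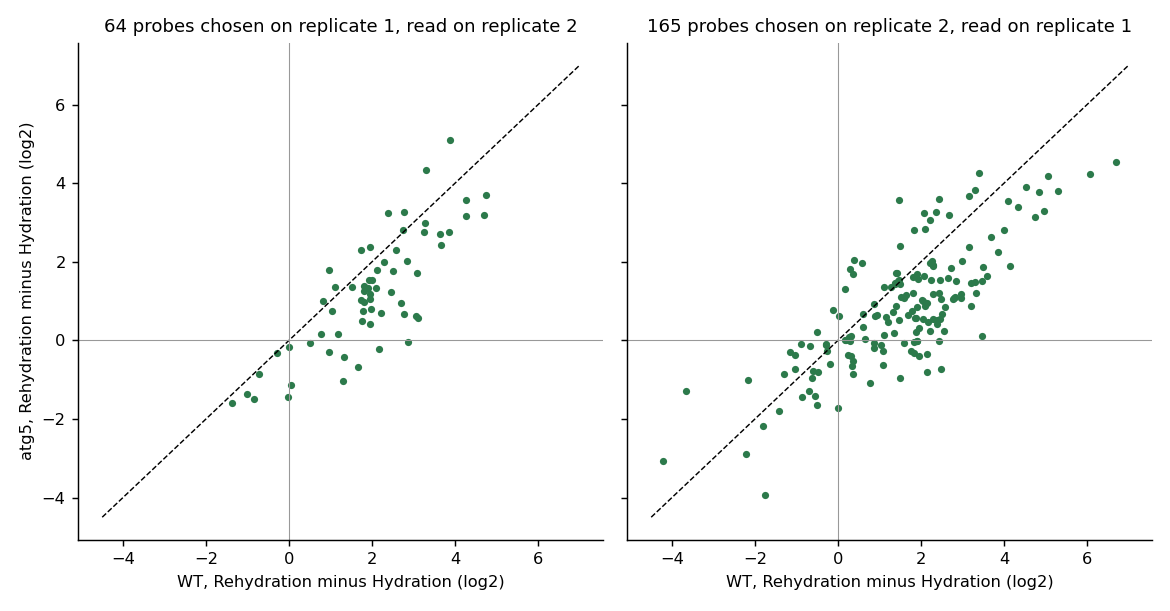
Rehydration minus Hydration (log2) in atg5 on the vertical axis against WT on the horizontal axis, for probes chosen on WT replicate 1 and read on replicate 2 (left, 64 probes) and chosen on WT replicate 2 and read on replicate 1 (right, 165 probes), with a dashed line where both genotypes are equal. Most points lie under the dashed line, with the larger rise in WT for 54 of the 64 and 124 of the 165. Of the 64 and the 165, 39 and 69 were detected in both genotypes on the arrays read. The share of all probes with the larger rise in WT is not given.

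Chosen on atg5 instead of WT, the larger median was that of atg5, so in all 4 lists it was that of the genotype that chose the probes. The same limits on atg5 replicate 1 alone took 52 probes, with a median of 1.66 in atg5 and 1.32 in WT in replicate 2, and a larger rise in atg5 for 21 of the 52. On atg5 replicate 2 alone they took 40 probes, with a median of 2.03 in atg5 and 1.72 in WT in replicate 1, and a larger rise in atg5 for 22 of the 40. Of these lists 21 of the 52 and 31 of the 40 were detected in both genotypes on the arrays read. The medians were 2.76 in atg5 and 2.39 in WT for the 21, and 2.495 in atg5 and 2.07 in WT for the 31. The rise was larger in atg5 for 12 of the 21 and 17 of the 31. These counts were nearer to even than those of the detected probes chosen on WT. On both replicates of atg5 they took 30 probes, of which 5 are among the 61, or 16.7% of the atg5 list and 8.20% of the WT list. Those 30 probes had a median WT difference of 2.10. The 45 probes chosen with the sign turned in WT had a median difference of -1.60 in atg5 and -2.32 in WT, and 30 of the 42 fitted were lower in atg5 Rehydration.

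The 3 probes outside the 61 whose levels followed the mean of the 61 most closely over the 16 channels were Pp1s134_124V6.1 (Pearson r = 0.97), Pp1s651_2V6.1 (r = 0.96) and Pp1s153_66V6.2 (r = 0.96). The 16 points share arrays in pairs. Pp1s134_124V6.1 rose by 1.65 in atg5 and 3.41 in WT and stayed out because its WT level on ABA was 0.90 above Hydration. Pp1s651_2V6.1 rose by 2.72 in atg5 and 3.32 in WT and stayed out because its WT level in Dehydration was 0.86 below Hydration. Pp1s153_66V6.2 rose by 1.28 in atg5 and 1.85 in WT, under the minimum.

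The loci were spread over many scaffold numbers. The 60 loci carry 56 different scaffold numbers, and the 4 numbers that occur more than once hold loci at least 53 locus numbers apart. Of 71 probes with a locus number next to that of a selected locus, 9 were well above background in WT on all arrays. Among these 9, 2 (22.2%) rose by 1 or more in WT, beside 22.4% of eligible probes. So few probes cannot show whether grouping is absent, and no expected number of shared scaffold numbers was worked out.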

How the data were processed

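Agilent Feature Extraction read the arrays, in version 9.5.3.1 per the file headers and 9.1 per the submitters' processing notes. The deposited files hold spot intensities per dye, as median pixel signals, local background medians, and processed signals that the authors' software had background-subtracted and dye-normalized. The labels give 200 ng of RNA per labelling. The deposited tables of normalized intensities were not used here.

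The selection used processed signals, with spots of a probe averaged (38316 gene spots, 0 saturated). The limma 3.58.1 (R 4.3.3) fits used median signals after normexp correction (offset of 50) and loess within arrays. Spots with an outlier mark were left out. A probe was kept where 1 or more groups had it well above background on each of their arrays. Ratios, turned to atg5 over WT, were fitted with 1 coefficient per treatment (19662 probes). Channel levels were fitted after Aquantile normalization (19141 probes). Fits without 1 array used the full fit's channel correlation. Benjamini-Hochberg adjustment ran over all probes fitted. The precision is limited by 2 arrays per group. Slide and scan coincide with replicate number and dye orientation.

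Deviations of same-numbered arrays correlated at 0.272 to 0.537 for ratios in all pairs of treatments, and at 0.0364 to 0.104 for channel levels. Same-numbered arrays also share dye orientation, slide and scan. A pairing of samples by number therefore cannot be told apart from an effect of these on the ratios.

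Members, lists and tests were chosen with earlier results of these data known. Planned gene lists were not analysed here, since no identifier has a name. Named were the 10 largest WT rises, the 5 largest and 5 smallest atg5 differences, the 5 highest WT levels in Rehydration, 3 probes either side of the minimum, loci with several members, the highest and lowest ratio per treatment and the 3 most similar other probes. Fits were tested on simulated data. Alternatives were other scalings, filters, limits, a replicate block and each array left out. The split at the floor, the selection on atg5 and the reading of detected probes alone were added after seeing the data.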

Additional observations from a re-analysis of the deposited data

Results flagged for a closer look

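For these probes the response to rehydration was set against each other in both genotypes, as the atg5 over WT log2 ratio in Rehydration minus that in Hydration (limma, adjusted p under 0.05). Of 60 fitted probes, 35 had a smaller response in atg5 than in WT and 3 a larger one, against 11.3 and 11.1% of all probes. WT values of both treatments chose the probes, so this contrast is a description and nothing is read from these counts. With spike-in scaling 16 were larger in atg5 and 0 smaller.

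The median of the 60 probes was -0.64, and -0.67 relative to the median of all probes. Relative to that median it was -1.21 with the processed signals, -0.38 with median centring and -0.38 with spike-in scaling, although the unadjusted median turned to 0.21 and 1.27 under these last 2 scalings. Both shift whole arrays, so their like values relative to the median follow from the method. The Rehydration arrays' lower signal moves with these differences, and its part in them was not tested.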

How the results depend on the processing

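The selection itself depended on the scaling. In place of 61 probes it took 6 with levels centred on all gene probes (5 of them among the 61), 2 with spike-in scaling (0), 32 with normexp, loess and Aquantile levels (14), 154 with a minimum of 1.5 and 22 with one of 2.5, and 37 with a limit of 0.5 and 117 with one of 1 on ABA and in Dehydration. With outlier spots left out, 59 of the 61 were kept. On 1 replicate alone it took 64 to 165 probes. Causes were not tested.

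Among the fits, the count of 42 calls for atg5 Rehydration against Hydration was 20 with median centring, 4 with spike-in scaling, 22 with only probes well above background in all 16 channels (43 of the 61), and 21 for the probes above the floor and 21 for those at or below it. For atg5 Rehydration against Dehydration (46 calls) it was 13 with spike-in scaling, mostly lower, and 27 with the stricter filter. The 56 calls of WT Rehydration against Hydration became 31 with spike-in scaling, all lower, and against Dehydration 31, all lower, or 35 with the stricter filter. For atg5 against Hydration it was 1 on ABA (5 before) and 4 in Dehydration (10 before) with median centring, and 2 on ABA with spike-in scaling, which in Dehydration gave 10 higher and 0 lower in place of 4 higher and 6 lower. Spike-in scaling shifted the median of all probes by -1.94 in WT and -0.24 in atg5 for Rehydration against Hydration, and median centring by 1.09 and 0.48.

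For the ratios, 24 calls in Hydration (15 higher, 9 lower) became 9 with processed signals, 0 with median centring and 37, all lower, with spike-in scaling. The 7 calls on ABA and 12 in Dehydration became 2 each with processed signals and 0 under both other scalings. The 36 calls in Rehydration became 0 under both, and the 38 calls of the difference in response became 0 with median centring and 16, all higher, with spike-in scaling. Fitting the replicate as a block gave 11 calls on ABA, and no other count moved by over 1.5 times.

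Without 1 array, the calls ranged from 32 to 46 for atg5 Rehydration against Hydration, 2 to 8 on ABA, 2 to 11 in Dehydration and 30 to 44 for Rehydration against Dehydration, from 53 to 57 and 52 to 56 for WT, from 10 to 26, 4 to 7, 5 to 11 and 23 to 36 for the ratios in Hydration, ABA, Dehydration and Rehydration, and from 28 to 39 for the difference in response.

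Single probes turned sign under spike-in scaling in atg5, with -0.13 for Pp1s213_86V6.1 and -0.15 for Pp1s23_141V6.2, and in the Hydration ratio, with -0.22 for Pp1s138_48V6.1.

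The limits are 2 arrays per group, a replicate number that is also slide, scan and dye orientation, dim Rehydration arrays, and identifiers without names.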
